A study of Homo sapiens with 8 samples.

Results

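The diacylglycerol kinases measured here are the 9 genes DGKA, DGKB, DGKD, DGKE, DGKG, DGKH, DGKI, DGKQ and DGKZ, out of 31426 gene symbols on the array. They were taken by symbol, with every probe, which gave 20 of 47322 probes. The family was chosen by a measured value, the increase of DGKB in SH-SY5Y TRPM7 shRNA cells, which was among the largest of all probes, so all values of that comparison are descriptions and carry no test for these genes. Gene expression was profiled on Illumina HumanHT-12 v4 bead arrays in SH-SY5Y cells, a neuroblastic neuroblastoma line, and in SH-EP2 cells, an epithelial-like one, both of which are subclones of the SK-N-SH line. Each line had been stably transduced, with a lentiviral vector and puromycin selection, with an shRNA against TRPM7, an ion channel with a kinase domain, or with a scrambled shRNA as control. There were 2 arrays in each of the 4 groups. A single TRPM7 shRNA sequence was used on the arrays, and although samples were prepared in duplicate from cultured cells, no source says whether the duplicates were separate cultures, so that p-values measure the spread between these arrays only.

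Diacylglycerol kinases phosphorylate the membrane lipid diacylglycerol to phosphatidic acid. Diacylglycerol is released when phospholipase C cleaves phosphoinositides, and it recruits proteins with a C1 domain, such as protein kinases C, so the kinases end this signal and at the same time make phosphatidic acid, a lipid messenger of its own. The family is divided by regulatory domains. Type I enzymes (DGKA, DGKB and DGKG) carry calcium-binding EF hands, type II enzymes (DGKD and DGKH) a pleckstrin homology domain, and type IV enzymes (DGKI and DGKZ) ankyrin repeats and a region resembling the phosphorylation site of MARCKS. DGKE, of type III, prefers diacylglycerol with an arachidonoyl chain, and DGKQ is the type V enzyme. DGKB is best known from the brain, where it is abundant in striatal neurons.

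Bead signals were detected, at a detection p under 0.05, for 40.9% to 44.2% of the probes per array. TRPM7, the targeted gene, was measured by 1 probe (ILMN_1667047), whose signals lay between 108 and 119 and which no array detected, so the knockdown was not measurable here. The paper reports stable TRPM7 knockdown in both lines and describes quantitative RT-PCR of TRPM7. Of 8 noradrenergic marker genes, 7 were detected on both SH-SY5Y control arrays and 2 on both SH-EP2 control arrays, and TH, which encodes tyrosine hydroxylase, was detected on none. All 8 mesenchymal markers were detected on both SH-EP2 control arrays. Values below are log2 normalized signals unless they are called deposited signals, and the brightest probe stands for a gene that has more than 1. Since the arrays measure bulk RNA, fewer expressing cells and less RNA per cell cannot be told apart.

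DGKB was barely above background in SH-SY5Y control cells and clearly detected in SH-SY5Y TRPM7 shRNA cells. The deposited signal of its brightest probe (ILMN_1810335) was 133 and 111 on the control arrays, at detection p-values of 0.0026 and 0.0403, and 291 and 363 on the TRPM7 shRNA arrays. The lower of the TRPM7 shRNA signals thus lay well above the higher of the control signals. After background correction and normalization the probe read 4.37 and 3.40 in control cells and 7.40 and 7.72 in TRPM7 shRNA cells, or 3.89 ± 0.69 against 7.56 ± 0.23 (SD, n = 2 per group). This is a log2 difference of 3.67 (standard error 0.23), a 12.8-fold increase on the corrected scale. The deposited signals differed by a ratio of 2.69, because they include a background that the RMA model placed at 98.3 to 110.3 on these 4 arrays. There were 936 probes that passed an adjusted p of 0.05, did not overlap between groups and were detected on both TRPM7 shRNA arrays. They include decreases, since only 382 of all 999 probes that passed were higher. Among the 936, DGKB ranked 3 by its increase, between SLC32A1 (4.04) and C18orf34 (3.47). The rank and these filters restate how DGKB was chosen and are no test of it.

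The difference was seen with this probe alone of the 3 for DGKB. The other 2 were undetected on every array, with deposited signals of 101 to 119 (ILMN_1688475) and 96.9 to 118 (ILMN_1697914), and their log2 differences in SH-SY5Y cells were 0.15 and 0.51. The size of the DGKB increase was set by the background correction, since it was 2.55 on the log2 scale with neqc, 1.62 with normexp and 1.24 without any correction.

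**Figure D1:**
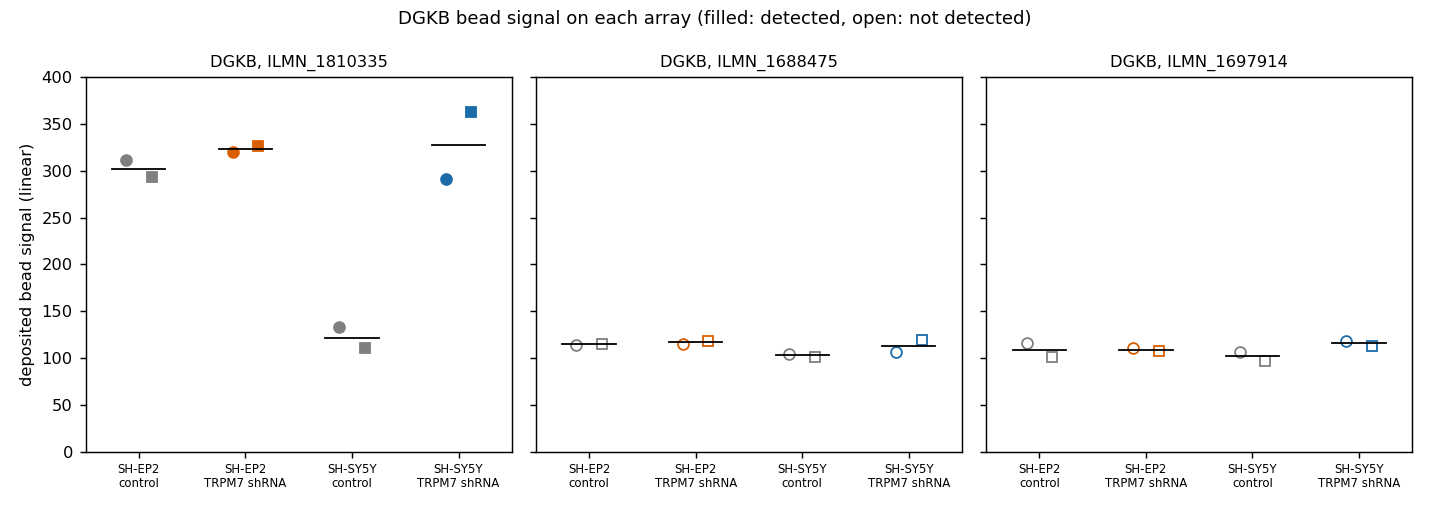
Deposited bead signal (linear scale, vertical axis) of the 3 DGKB probes on each array, by group, with circles for replicate 1, squares for replicate 2 and a line at the mean of 2 arrays; filled symbols were detected. In the left panel the SH-SY5Y control arrays (133 and 111) lie below all other arrays, and in the other panels no array was detected.

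In SH-EP2 cells DGKB was bright with and without the TRPM7 shRNA. Its deposited signals were 311 and 293 on the control arrays and 320 and 327 on the TRPM7 shRNA arrays. The normalized means were 7.60 ± 0.037 and 7.71 ± 0.039 (SD, n = 2 per group), a log2 difference of 0.11 (95% interval -0.38 to 0.60, adjusted p = 0.927 from limma). The TRPM7 shRNA effect was thus larger in SH-SY5Y than in SH-EP2 cells by 3.57 on the log2 scale (standard error 0.33), which was not tested because the SH-SY5Y part had chosen the gene.

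Ordered by level, DGKB was highest in SH-EP2 TRPM7 shRNA cells (7.71), followed by SH-EP2 control (7.60), SH-SY5Y TRPM7 shRNA (7.56) and SH-SY5Y control cells (3.89). The arrays of SH-SY5Y TRPM7 shRNA cells, at 7.40 and 7.72, lay on either side of those of SH-EP2 control cells, at 7.58 and 7.63, so these neighbours did not differ beyond their spread. SH-SY5Y control cells stood apart, 3.72 below SH-EP2 control cells on the log2 scale (standard error 0.23), again a description, since the same control arrays had chosen the gene.

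Markers of both lines were measured beside this difference. Of the 8 mesenchymal markers, 6 were detected on both arrays of either SH-SY5Y group. VIM and LUM were no higher in SH-EP2 than in SH-SY5Y control cells, at 13.48 against 13.68 for VIM and 10.56 against 10.87 for LUM. With the TRPM7 shRNA in SH-SY5Y cells, LUM, a matrix proteoglycan, rose by 0.78 on the log2 scale and VIM, an intermediate filament protein, fell (-0.30). The other 6 markers were higher in SH-EP2 control cells, and none of them passed in SH-SY5Y cells in limma. Their log2 differences there were 0.29 for CD44, 0.17 for FN1, 0.17 for PRRX1, -0.08 for YAP1, -0.31 for COL1A1 and -0.47 for TGFBI, with FN1 and PRRX1 undetected on all SH-SY5Y arrays. On the linear scale the 8 markers summed to 14585 to 16032 in SH-SY5Y control and 14016 to 14284 in SH-SY5Y TRPM7 shRNA cells. Without VIM and LUM, left out after their values were seen, the sums were 321 to 326 and 291 to 309, against 28398 to 29627 in SH-EP2 control cells. Of the 8 noradrenergic markers, ISL1 (-0.45) and DBH (-1.20) fell in SH-SY5Y cells, and their sum was 20712 to 21990 in control and 14782 to 14910 in TRPM7 shRNA cells. The part of these markers in the DGKB difference was not tested.

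DGKA, the type I enzyme known from T lymphocytes, was detected on all 8 arrays by 2 of its 5 probes. The brighter one (ILMN_2319913) read 6.61 and 6.51 in SH-EP2 control cells, 6.99 and 6.80 in SH-EP2 TRPM7 shRNA cells, 5.03 and 5.28 in SH-SY5Y control cells, and 5.77 and 4.35 in SH-SY5Y TRPM7 shRNA cells. The last group spread more than the others, and its arrays lay on either side of the control arrays. In control cells the DGKA level was higher in SH-EP2 than in SH-SY5Y, with a log2 difference of 1.41 (adjusted p = 0.00134 from limma, standard error 0.31), and its second detected probe by 1.30 (adjusted p = 0.00336). With the TRPM7 shRNA it differed by 0.34 in SH-EP2 cells (95% interval -0.31 to 0.99, adjusted p = 0.754) and by -0.09 in SH-SY5Y cells (standard error 0.31). This line difference was lost when eBayes was run with no intensity trend (adjusted p = 0.0706) or as a mean over its probes (0.67, adjusted p = 0.22). The remaining type I enzyme, DGKG, was undetected on every array, with deposited signals of 97.6 to 115.

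DGKD, a type II enzyme, was detected on all 8 arrays by 1 of its 3 probes (ILMN_1765326). It read 7.47 and 7.36 in SH-EP2 control and 7.13 and 7.19 in SH-EP2 TRPM7 shRNA cells, and 6.72 and 6.58 in SH-SY5Y control and 6.56 and 6.75 in SH-SY5Y TRPM7 shRNA cells. In SH-SY5Y cells the groups overlapped and the log2 difference was 0.01 (standard error 0.16), while in SH-EP2 cells both TRPM7 shRNA arrays were lower, by -0.25 (95% interval -0.58 to 0.08), which did not pass (adjusted p = 0.59 from limma). Between control cells DGKD was higher in SH-EP2, by 0.77 (standard error 0.16, adjusted p = 0.000735), but its other probes differed by -0.10 and -0.57 and the mean over the 3 probes by 0.03 (adjusted p = 0.965). Those other probes were undetected on all SH-EP2 arrays. DGKH, the other type II enzyme, was measured by 2 probes, of which the brighter (ILMN_1714087) was detected on 1 array, SH-SY5Y control replicate 2. It read 3.01 and 3.44 in SH-SY5Y control cells and 2.39 and 2.14 in SH-SY5Y TRPM7 shRNA cells, so the groups did not overlap, and the second DGKH probe, undetected, differed by 0.23 in the other direction.

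DGKI, a type IV enzyme, was the member with the clearest difference in SH-EP2 cells, but that difference did not pass. Its probe (ILMN_1718266) read 3.39 and 4.37 in SH-EP2 control cells, both detected. In SH-EP2 TRPM7 shRNA cells it read 2.67 and 2.49, both undetected (unadjusted p = 0.0247 and adjusted p = 0.279 from limma). Against the lowest detected signals it was 1.63-fold lower there on the corrected scale, a point value and no minimum. The fitted log2 difference ranged from -1.79 to -0.17 over the alternatives. On the SH-SY5Y arrays it read 2.77 and 2.03 in control and 2.15 and 3.28 in TRPM7 shRNA cells, with 1 array, TRPM7 shRNA replicate 2, detected. Between control cells the fitted DGKI difference ranged from 0.20 to 1.98 on the log2 scale over the alternatives. By the same point value DGKI was 1.65-fold higher in SH-EP2 control cells (adjusted p = 0.0458 from limma). This call was lost under 7 of 16 alternatives, among them leaving out SH-EP2 control replicate 2 (adjusted p = 0.331) or SH-SY5Y control replicate 2 (0.28) and the replicate block (adjusted p = 0.0615), and the adjusted p ranged from 0.0276 to 0.331. DGKZ, the other type IV enzyme, was undetected on every array with all 3 probes, and so was the single probe of DGKE, with deposited signals of 103 to 119. Fitted differences of these undetected genes in SH-EP2 cells were -0.54 for DGKZ (adjusted p = 0.638), 0.27 for DGKE (95% interval -0.61 to 1.15) and -0.13 for DGKG (adjusted p = 0.941).

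DGKQ, the type V enzyme, was detected on all 8 arrays by its single probe (ILMN_1793017). It read 7.38 and 7.56 in SH-EP2 control, 7.70 and 7.62 in SH-EP2 TRPM7 shRNA, 6.92 and 6.70 in SH-SY5Y control, and 6.95 and 7.03 in SH-SY5Y TRPM7 shRNA cells. In both lines the TRPM7 shRNA arrays lay just above the control arrays. The log2 difference was 0.18 in SH-SY5Y cells (standard error 0.15) and 0.19 in SH-EP2 cells (95% interval -0.12 to 0.51, adjusted p = 0.693 from limma). Between control cells DGKQ was higher in SH-EP2 by 0.66 (standard error 0.15, adjusted p = 0.00197), and this call held under all 16 alternatives run for it, at adjusted p-values of 0.000456 to 0.0386.

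**Figure D2:**
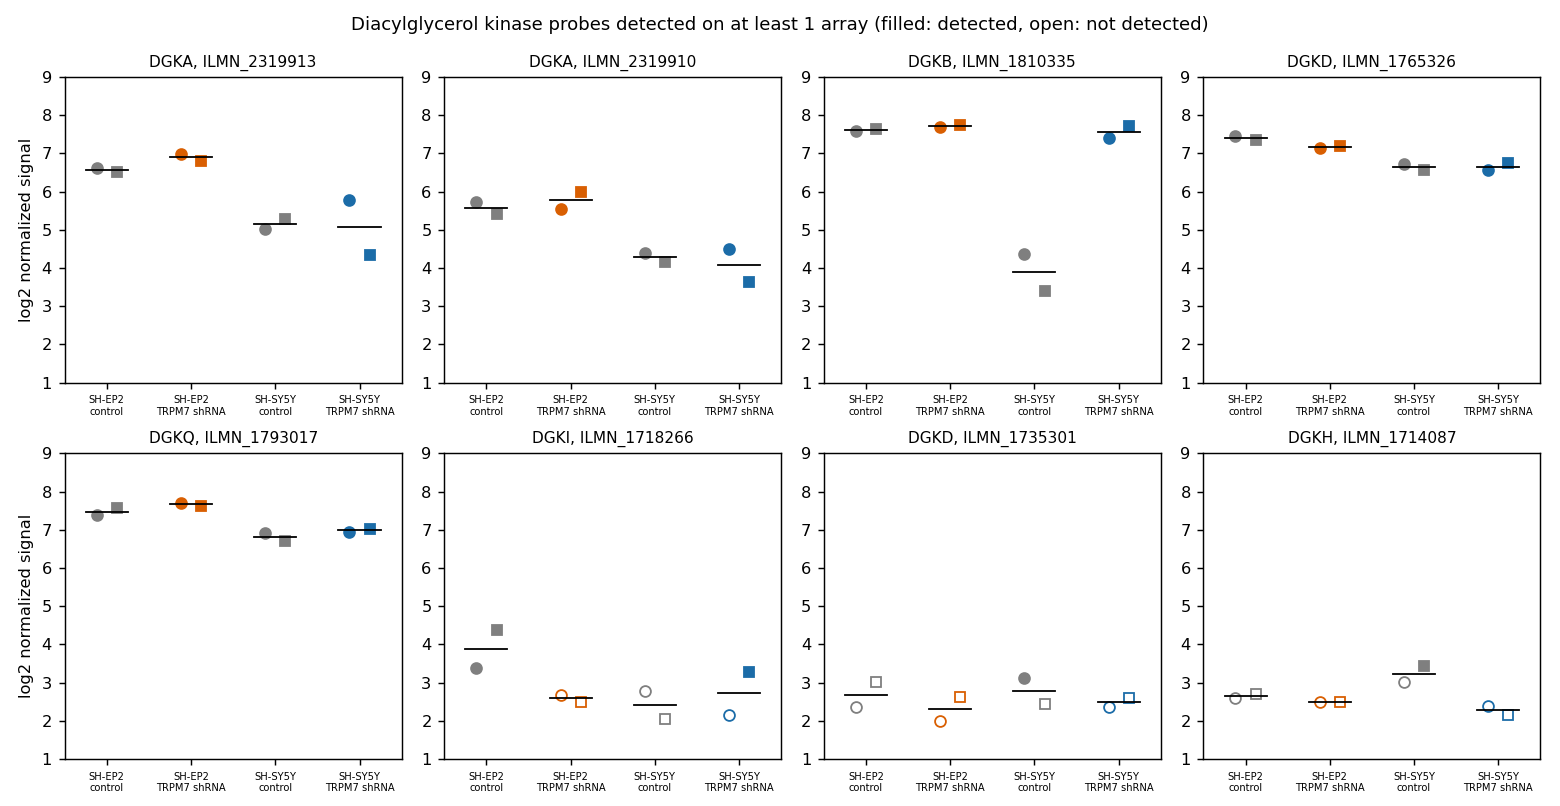
Log2 normalized signal (vertical axis) of the 8 diacylglycerol kinase probes detected on at least 1 array, by group, with circles for replicate 1, squares for replicate 2, a line at the mean of 2 arrays and filled symbols for detected signals. The DGKB control arrays of SH-SY5Y cells (4.37 and 3.40) fall away from its other arrays. DGKA, DGKQ and the brighter DGKD probe (ILMN_1765326) are lower in both SH-SY5Y groups than in SH-EP2 cells. The other DGKD probe shown (ILMN_1735301), detected on 1 array, does not show this.

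Across the family, 4 genes (DGKA, DGKB, DGKD and DGKQ) were detected on all 8 arrays, DGKH and DGKI on some, and DGKE, DGKG and DGKZ on none. In SH-SY5Y cells 1 of 9 genes, DGKB, was past an adjusted p of 0.05, where 2.57% of all genes and 5.91% of genes detected on all 8 arrays were, and the arrays of 5 of 9 genes did not overlap, against 40.5% of all genes. Nothing is read from these counts, because DGKB chose the family. The 3 other genes detected on all arrays differed by -0.09 to 0.18 on the log2 scale. In SH-EP2 cells, 0 of 9 genes passed the adjusted threshold in limma, against 3.67% of all genes and 8.26% of those detected on all arrays. An unadjusted p under 0.05 was found for 1 of the 9, DGKI, and for 4393 of all 31426 genes. The arrays of 7 of the 9 did not overlap between groups there, against 44.3% of all genes. For the 4 genes detected on all arrays, the 95% intervals reached from -0.58 to 0.99, and the widest was that of DGKA.

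Between the control cells of the lines, DGKA, DGKD, DGKI and DGKQ were higher in SH-EP2, which is 4 of the 8 members other than DGKB, and none was called lower. Over all genes 14.2% were called higher and 15.9% lower in SH-EP2. Among genes detected on all 8 arrays 28.4% were called higher, a group in which DGKA, DGKD and DGKQ each were. The median log2 difference of the 8 members was 0.51, and that of all genes -0.02, and both include genes that no array detected. For the 3 members detected on all 8 arrays it was 0.77, and for all such genes -0.06. The count of 4 fell to 2 when eBayes had no intensity trend, where DGKA and DGKI were lost, and to 2 when all probes of each gene were averaged, where DGKA and DGKD were.

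**Figure D3:**
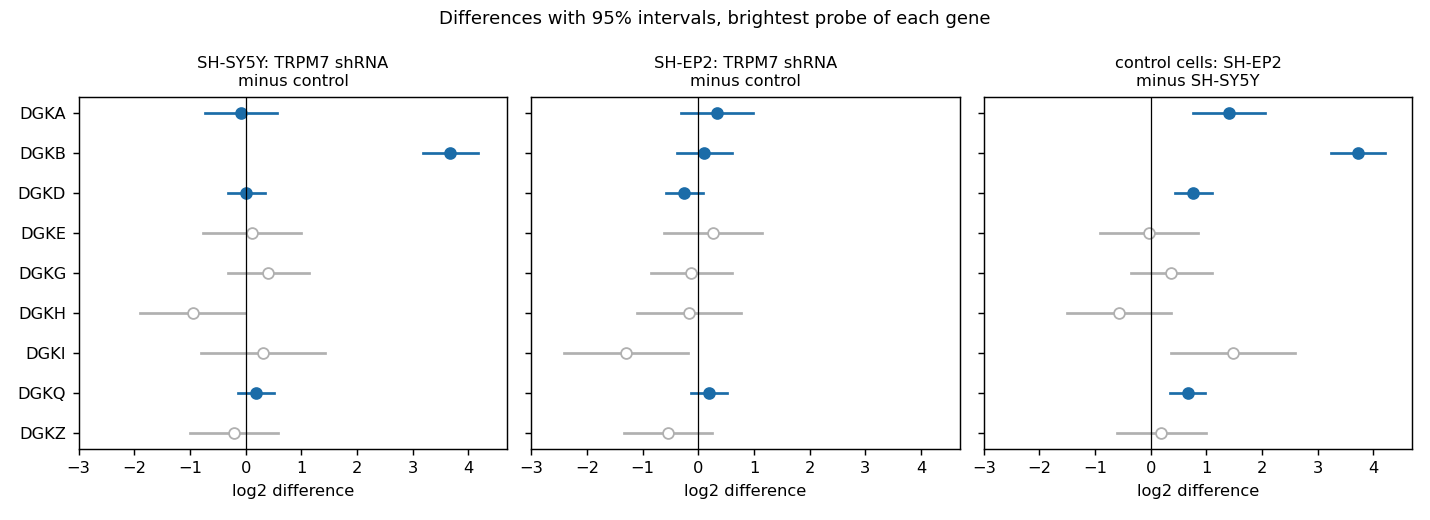
Log2 difference (horizontal axis) of the brightest probe of each of the 9 genes in 3 comparisons, with 95% intervals from the fit; filled blue symbols are genes detected on all 8 arrays. DGKB stands at 3.67 in SH-SY5Y cells and at 0.11 in SH-EP2 cells, and the fitted values of open symbols rest on signals that were not detected on every array.

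The other genes of diacylglycerol metabolism and signalling were taken from 4 lists of 62 genes in all, each with a probe. In SH-SY5Y cells 4 of the 62 passed the adjusted threshold with the TRPM7 shRNA, 1 higher and 3 lower, and in SH-EP2 cells 4, of which 2 were higher and 2 lower. That is 6.45% in either line, against 2.57% of all genes and 5.91% of genes detected on all 8 arrays in SH-SY5Y cells, and 3.67% and 8.26% in SH-EP2 cells. The median log2 difference of the 62 genes was -0.01 in SH-SY5Y and -0.03 in SH-EP2 cells, and that of all genes 0.00 and 0.01.

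Among 22 genes that form diacylglycerol, 1 fell in SH-SY5Y cells and 2 rose in SH-EP2 cells. PPAP2B, now named PLPP3, a phosphatase that turns phosphatidic acid back into diacylglycerol, read 8.69 and 8.46 in SH-SY5Y control and 7.81 and 7.93 in SH-SY5Y TRPM7 shRNA cells (log2 difference -0.71, adjusted p = 0.00433 from limma). Its second detected probe missed the threshold at -0.63 (adjusted p = 0.342). PLCD4, a phospholipase C of the delta group, rose in SH-EP2 cells from 4.13 and 4.75 to 6.01 and 5.78 (1.45, adjusted p = 0.000343), and PPAP2C (PLPP2), another of these phosphatases, from 5.37 and 4.93 to 6.03 and 6.21 (0.97, adjusted p = 0.0136). A second PPAP2C probe missed the threshold at 0.96 (adjusted p = 0.0707), and the remaining one was at -0.09.

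Of 23 effectors of diacylglycerol, 1 fell in SH-SY5Y cells and 0 passed in SH-EP2 cells. An unadjusted p under 0.05 in limma was found for 1 of the 23 in SH-EP2 cells, as for 4393 of all 31426 genes. In SH-SY5Y cells it was found for 6 of the 23, and for 3978 of all 31426 genes. PRKCH, the eta isoform of protein kinase C, fell in SH-SY5Y cells from 7.16 and 7.37 to 6.55 and 6.62 (-0.68, adjusted p = 0.0175). In SH-EP2 cells PRKCH was at -0.37 and did not pass (adjusted p = 0.269). PRKCE, the epsilon isoform, was at 3.05 in SH-SY5Y control and 4.31 in SH-SY5Y TRPM7 shRNA cells and did not pass (1.25, adjusted p = 0.0622). Only 1 of the SH-SY5Y control arrays detected PRKCE, so the size of this difference is a fitted value. Of 11 enzymes that use diacylglycerol or phosphatidic acid or act beside them, CDS2, which makes CDP-diacylglycerol from phosphatidic acid, fell in SH-SY5Y cells from 6.85 and 7.05 to 5.90 and 6.23 (-0.88, adjusted p = 0.00623). PIP5K1C, a kinase that makes the phosphoinositide substrate of phospholipase C, fell in SH-EP2 cells from 7.57 and 7.59 to 6.93 and 6.87 (-0.69, adjusted p = 0.0348). In SH-SY5Y cells PIP5K1C was at -0.58 and did not pass (adjusted p = 0.11).

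Of 6 related lipid kinases, CERKL, a homologue of ceramide kinase, moved in opposite directions in the lines. It read 2.80 and 2.23 in SH-SY5Y control cells, both undetected, and 4.28 and 4.08 in SH-SY5Y TRPM7 shRNA cells (adjusted p = 0.0191 from limma). Against the lowest detected signals it was 2.03-fold higher there on the corrected scale, a point value and no minimum. The fitted log2 difference ranged from 0.22 to 1.93 over the alternatives. In SH-EP2 cells it fell from 5.48 and 5.83 to 4.23 and 3.93 (-1.58, adjusted p = 0.0221), and its 3 other probes were undetected on every array. The CERKL call was lost under 9 of 17 alternatives in SH-SY5Y cells, with adjusted p-values of 0.0171 to 0.599, and under 6 of 17 in SH-EP2 cells, with 0.00125 to 0.722. DGKK, the type II member of the family that is not among the 9 genes, was undetected on every array.

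Each of these calls except that of PLCD4 was lost when at least 1 array of the same line was left out. The direction was bound to hold in those fits, because the arrays of the groups did not overlap for these genes. The PIP5K1C difference stayed between -0.72 and -0.65, that of PPAP2B between -0.82 and -0.59, and PLCD4 passed with each array left out, at 1.14 to 1.76. Fewer of the 62 genes passed when control replicate 2 or TRPM7 shRNA replicate 1 was left out in SH-SY5Y cells, or any array in SH-EP2 cells. Fewer of all probes did too, so nothing is read from these counts. With median scaling, 1 of the 62 passed in SH-SY5Y cells, which was higher, where 837 of all 47322 probes passed. Without the intensity trend 0 of the 62 passed in either line. Over all probes only 64 of 47322 then passed in SH-SY5Y and 100 in SH-EP2 cells, so nothing is read from that count.

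**Figure D4:**
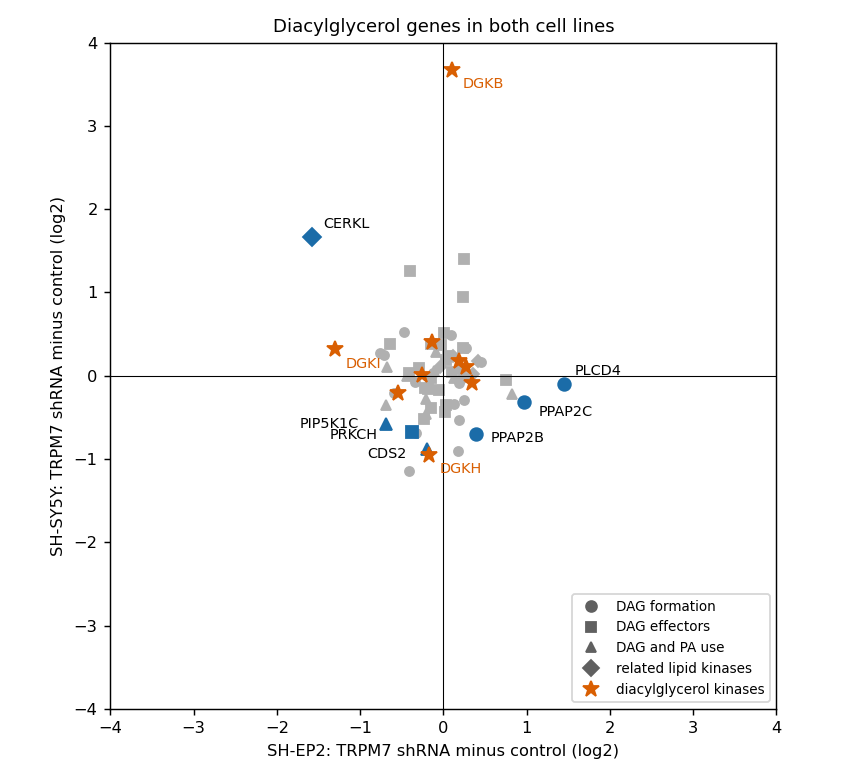
Log2 difference between TRPM7 shRNA and control cells in SH-EP2 (horizontal axis) and SH-SY5Y (vertical axis) for 62 diacylglycerol genes, with blue for the 7 that passed in at least 1 line, and for the 9 diacylglycerol kinases as stars. DGKB lies at 3.67 on the vertical and 0.11 on the horizontal axis, above every gene of the lists, and CERKL at 1.67 and -1.58.

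The genes whose pattern over the 8 arrays was closest to that of DGKB were PALMD, LOC440585, MCTP1, EVI1 (now named MECOM) and STXBP5. Likeness was the root mean square difference between log2 signals centred on each probe's mean, over 17918 named probes detected on both SH-SY5Y TRPM7 shRNA arrays. It was 0.55 for PALMD, which encodes palmdelphin, 0.59 for LOC440585, 0.66 for MCTP1, 0.68 for EVI1 and 0.70 for STXBP5, which encodes a syntaxin-binding protein. Since DGKB itself enters as it was chosen, this is a description. MCTP1 was undetected on both SH-SY5Y control arrays and LOC440585 on 1 of them. Like DGKB, all 5 were lowest on the SH-SY5Y control arrays. PALMD read 3.70 and 3.99 there, 6.52 and 6.58 in SH-SY5Y TRPM7 shRNA cells, and 7.62 to 7.72 on the SH-EP2 arrays. Unlike DGKB, it stayed below the SH-EP2 arrays in SH-SY5Y TRPM7 shRNA cells.

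**Figure D5:**
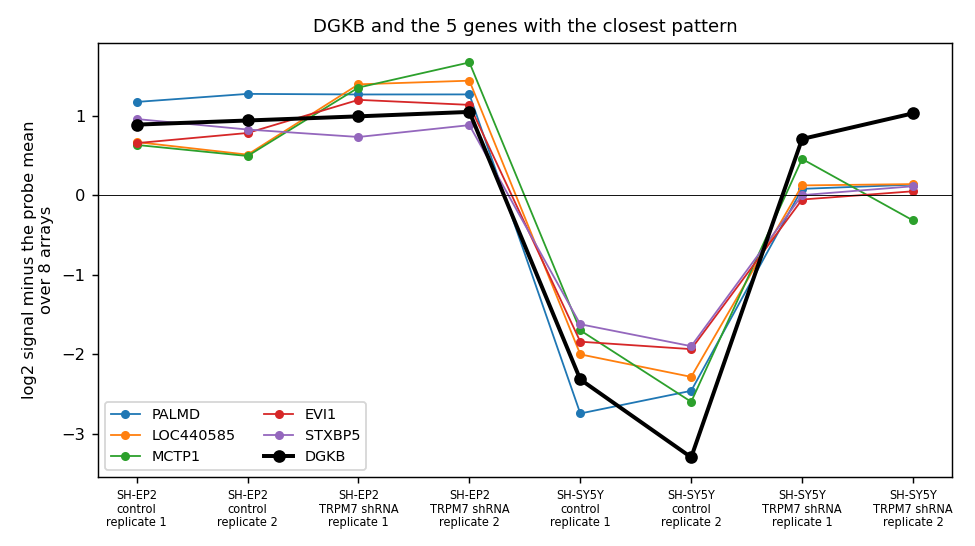
Log2 signal minus each probe's mean over the 8 arrays (vertical axis) for DGKB (black) and the 5 genes with the closest pattern, with the arrays along the horizontal axis; lines join the values of a probe and show no time course. All 6 genes are lowest on the SH-SY5Y control arrays, and DGKB alone of them overlaps between SH-SY5Y TRPM7 shRNA and SH-EP2 control arrays.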

How the data were processed

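RNA of 8 samples was hybridized to Illumina HumanHT-12 v4 arrays. Bead intensities and detection p-values per probe were exported by the authors from GenomeStudio 2011.1 and deposited, the intensities on a linear scale, not normalized between arrays. Their own analysis used Robust-Multi-Array normalization, and their test is not named. For the values given here, the RMA model removed background, the 8 arrays were then quantile normalized, and log2 was taken with no filter. Median signals ranged from 104.8 to 119.9, and precision is limited by how few arrays there are. Groups, taken from the sample titles, were compared with limma 3.58.1 in R 4.3.3 (a fit of 4 groups with lmFit, moderated by eBayes with trend, two-sided, Benjamini-Hochberg adjustment over 47322 probes). For a group with no detected array, a fold was computed against the lowest signal among detected probes of each array or the probe's own, whichever was higher. It is a point value on the corrected scale, with no allowance for spread or background model. Leaving out 1 array assumes that the lone one left varies as the other groups do. All 9 symbols are current in RefSeq (GRCh38.p14), used for names only. The members, gene lists and comparisons were chosen with earlier results of these data known.

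The genes named are all members, TRPM7, each gene of the other lists that passed an adjusted p of 0.05 and was detected on both arrays of the brighter group, and the 5 genes closest to DGKB. PRKCE, DGKK and the markers were named after their values were seen. The procedure was tested on simulated data. As alternatives, background was handled by neqc (offset 16), by normexp (offset 50) or not at all; the others were median scaling, a filter for detection on 2 arrays, no eBayes trend, each line alone, the replicate number as a block, the mean over probes, and leaving out each array.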

Additional observations from a re-analysis of the deposited data

Results flagged for a closer look

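The TRPM7 shRNA effect differed between the lines, by the interaction term in limma, for 4 of the 7 named genes of diacylglycerol metabolism. These 7 were named because they passed in at least 1 line on the same arrays, which favours a difference between lines. The adjusted p-values below are therefore descriptions and no separate test. Over all probes 662 of 47322, or 1.4%, passed, but that share is not the one for genes chosen in this way. The effect in SH-SY5Y minus that in SH-EP2 cells was -1.55 on the log2 scale for PLCD4 (adjusted p = 0.00856), -1.10 for PPAP2B (adjusted p = 0.00232), -1.29 for PPAP2C (adjusted p = 0.0389) and 3.24 for CERKL (adjusted p = 0.00159). A second PPAP2B probe gave -1.52 (adjusted p = 0.048), and a second PPAP2C probe -1.48, which did not pass (adjusted p = 0.0687). The interaction did not pass for CDS2 (-0.69, adjusted p = 0.257), PRKCH (-0.31, adjusted p = 0.691) or PIP5K1C (0.10, adjusted p = 0.938). These genes were lower with the TRPM7 shRNA in both lines, though each passed in only 1. The CERKL value includes SH-SY5Y control arrays that did not detect the probe, so that its size is a fitted value.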

How the results depend on the processing

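The DGKB increase in SH-SY5Y cells, 3.67 on the log2 scale, kept its direction under all 17 alternatives. That is no support, since this increase had chosen the gene. It was 2.55 with neqc, 1.62 with normexp, 1.24 without background correction and 1.44 as a mean over its 3 probes. The last averages in the 2 undetected probes. The difference of the DGKB effects between the lines, 3.57, was 2.46, 1.54, 1.17 and 1.52 under the same 4 settings, and 3.08 to 4.05 with each array left out. In SH-EP2 cells 0 of the 9 genes passed under each alternative that left out no array, although the detection filter kept only 5 of them. The DGKB difference there reversed to -0.074 as a mean over probes (adjusted p = 0.967). Between control cells the count of 4 members fell to 2 without an intensity trend and to 2 with the mean over probes. Of the other diacylglycerol genes in SH-SY5Y cells, 4 passed, and 1 with median scaling, 0 without an intensity trend and 2 with the mean over probes. Of all 47322 probes 999 passed there, and 837 with median scaling and 64 without a trend. In SH-EP2 cells 4 passed, and 0 without an intensity trend and 2 with the mean over probes. Of all probes 1429 passed there, and 100 without a trend. In both lines fewer of these genes passed when certain arrays were left out.

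With replicate numbers blocked per line (the replicate block), the DGKB increase was 3.67, 0 of the 9 genes passed in SH-EP2 cells, 3 of 8 between control cells, and 4 and 3 of the other diacylglycerol genes in SH-SY5Y and SH-EP2 cells. The calls lost were those of DGKI and, at an adjusted p of 0.0664, PIP5K1C. Differences between replicates of control and TRPM7 shRNA cells were correlated across 14577 probes (not independent replicates) at r = -0.00447 for SH-EP2 cells and r = -0.111 for SH-SY5Y cells, so the numbers were not taken to pair the arrays. A crossed pairing in SH-SY5Y cells, added after seeing the data, called 1420 probes, against 999 without a block and 801 with the numbered block. The signal over background limits DGKE, DGKG and DGKZ, which were at background on every array.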
